A study of Mus musculus with 4 samples.

Results

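NRF2, an antioxidant transcription factor, was followed with its targets as a group of 10 genes: Nfe2l2, which encodes NRF2, and 9 genes that are widely used as its antioxidant targets, namely Nqo1, Hmox1, Gclc, Gclm, Txnrd1, Srxn1, Slc7a11, Gsta4 and Gstm1. They were chosen by name, as the probes whose annotated gene name was 1 of the 10, out of 31896 gene names on the array. The 10 genes had 12 probes, since Hmox1 and Gstm1 had 2 each, and the probe brightest over all arrays stood for its gene. Total RNA came from cultured breast cancer cells that had been grown out of MMTV-Neu tumours. In these mice the Neu (Her2) oncogene is expressed in the mammary epithelium from the promoter of a mammary tumour virus. The cells labelled Pak1-/- came from animals lacking the p21-activated kinase Pak1, and those labelled Pak1+/+ from animals with it, with 2 samples in each group, taken from different tumours. All cells, controls included, carried the Neu transgene and had been kept without serum for 3 h before EGF was added for 15 min. The sources used here do not give the age of the animals.

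NRF2 is held at a low level by KEAP1, an adaptor that hands it to a CUL3 ubiquitin ligase for destruction. Oxidants and electrophiles modify KEAP1, NRF2 then accumulates in the nucleus, pairs with a small MAF protein and binds the antioxidant response element of its target genes. Most of this control acts on the protein, so the Nfe2l2 transcript reports the supply of the factor and not its activity, and transcripts of the targets are the usual readout. The targets make glutathione, reduce thioredoxin and quinones, degrade heme, import cystine or join glutathione to reactive compounds.

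Signal was well above background for 62.2% to 70.4% of the 39429 probes of an array, and 27229 probes entered the test. The single Pak1 probe did not separate the groups as the labels would have it: it read 12.21 and 12.25 in the arrays labelled Pak1-/- and 12.04 and 12.04 in those labelled Pak1+/+ (adjusted p = 0.070, limma). Whether this probe lies in the deleted part of the gene is not given in the sources used here, so every direction below follows the labels alone. Of the epithelial marker list (Krt8, Krt18, Krt19, Epcam, Cdh1), 4 of 5 genes were above background on all arrays, with Krt8 (0.57), Krt18 (0.27) and Cdh1 (1.19) higher, and Epcam (-0.23) and Krt19 (-0.64) not passing. The summed linear level of the list, set mostly by the bright Krt8 and Krt18, was 932273 to 946408 in the arrays labelled Pak1-/- against 719440 to 722520 in the others. The adipocyte markers were too dim to be tested, with Adipoq and Lep below background everywhere. Of the 5 leukocyte markers tested, 1 passed, the low Ptprc (log2 difference -0.45), and of the 3 fibroblast markers Col1a1 did (1.12), while 0 of the 3 endothelial markers did, also at an unadjusted p under 0.05 (limma), by the brightest probe. A second Kdr probe was higher (1.37, adjusted p = 4.6e-04). The summed leukocyte level, set mostly by the bright Itgam, was 52068 to 74737 against 43245 to 47739. Itgam did not pass (0.49, adjusted p = 0.11, limma), and its other 2 probes read -0.20 and 0.56. The summed fibroblast level was 1198 to 1407 against 1043 to 1075. The part of other cells in the results below was not tested. All 4 arrays lay on 1 slide, with the arrays of a genotype next to each other, so slide position and genotype cannot be told apart.

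Of the 12 probes, 3 are shown as designed, from 5′ to 3′ on the transcript strand: the brighter Gstm1 probe and the Gsta4 probe, which passed the test in opposite directions, and the second Hmox1 probe, which did not pass although the first did. Read in codons from the first base, the Gstm1 probe held 15 codons and then a stop codon, set in capitals, with 12 bases after it. The other 2 probes were read the same way through 20 codons with no stop.
Gstm1: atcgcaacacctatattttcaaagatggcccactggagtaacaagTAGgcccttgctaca
Gsta4: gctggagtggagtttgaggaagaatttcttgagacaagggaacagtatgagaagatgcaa
Hmox1, second probe: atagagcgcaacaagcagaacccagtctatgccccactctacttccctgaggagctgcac

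On the mm9 assembly the Gstm1 probe is placed on chromosome 3, 107815595 to 107815654, on the minus strand. The Gsta4 probe is placed on the plus strand of chromosome 9 over 78046172 to 78047344, which is 1173 genomic bases for 60 bases of probe, so it joins exons across at least 1 intron. The second Hmox1 probe lies on chromosome 8, 77620797 to 77620856, and the first at 77624207 to 77624266, nearer the 3′ end of the gene.

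Of the 9 members that could be tested, Gstm1 and Hmox1 were higher in the arrays labelled Pak1-/-, Gsta4 was lower, and 6 did not pass at an adjusted p of 0.05, the threshold used throughout. The share that passed, 33.3%, stood beside 51.0% of all 22006 genes tested in the same fit, of which 22.8% were higher and 28.2% lower. Counted by probe, 3 of 11 were higher and 1 lower, beside 51.9% of all probes that passed (23.3% higher, 28.6% lower). The groups did not overlap in 7 of the 9 genes, against 77.6% of all genes. The median size of the difference was 0.14 on the log2 scale for the members and 0.32 for all genes, and 6 of the 9 members differed by under 0.2, as did 34.5% of all genes. No member reached a 2-fold difference with a passing test, which 12.6% of all genes did.

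**Figure D1:**
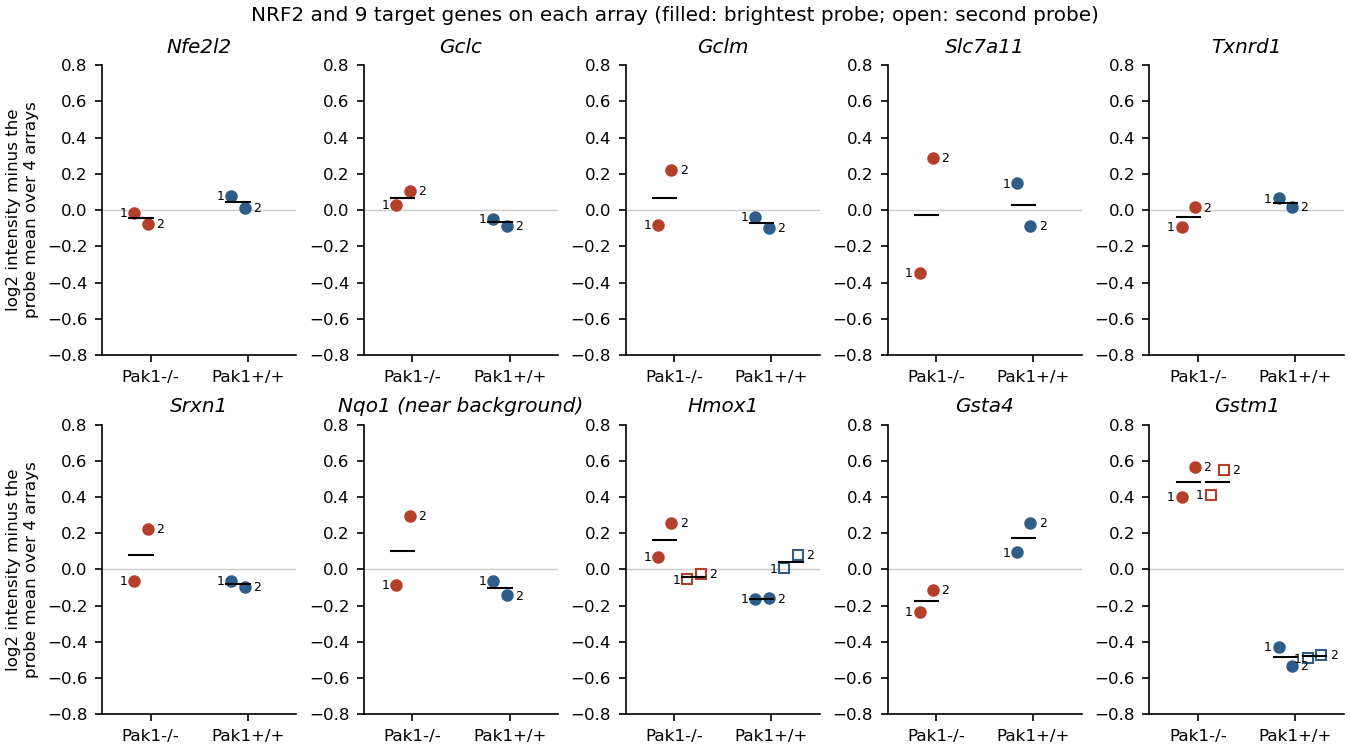
Normalized log2 intensity of NRF2 and its 9 targets on each array, minus the mean of that probe over the 4 arrays. Red marks the arrays labelled Pak1-/- and blue those labelled Pak1+/+, the digit is the replicate, the bar is the group mean (n = 2), filled circles are the brightest probe of a gene and open squares a second probe. The Gstm1 groups lie farthest apart, by 0.97 on the brighter probe and 0.96 on the second.

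Nfe2l2 read 14.29 and 14.23 in the arrays labelled Pak1-/- and 14.39 and 14.32 in the arrays labelled Pak1+/+ (chromosome 2, 75513771 to 75513830). Both Pak1-/- values lay just below both Pak1+/+ values, at a smaller gap than that between replicates. The difference was -0.09 (SE 0.07), with an adjusted p of 0.34 and a 95% interval of -0.28 to 0.10, so a larger change of the transcript lay outside the interval. The 3 genes whose values over the 4 arrays, centred on their own mean, lay nearest to those of Nfe2l2 were Lratd2, Gm5939 and A330032P22Rik, at root mean square differences of 0.005, 0.007 and 0.008. Such closeness was common, since 4982 of 21992 genes lay within 0.1 of Nfe2l2 over these 4 arrays.

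Gclc and Gclm encode the catalytic and the modifier subunit of glutamate-cysteine ligase, the enzyme of the first and rate-limiting step of glutathione synthesis. Gclc read 13.56 and 13.65 in the arrays labelled Pak1-/- and 13.49 and 13.45 in the others, a difference of 0.13 (SE 0.07, adjusted p = 0.19). Both Pak1-/- values were the higher ones, and under cyclic loess scaling the difference was 0.23 and passed (adjusted p = 0.049). Gclm read 11.17 and 11.47 against 11.21 and 11.15, a difference of 0.14 (SE 0.12, adjusted p = 0.39). Its groups overlapped, the second Pak1-/- replicate alone stood above the rest, and without that array the difference was -0.01. Slc7a11, the cystine-importing subunit of the xCT exchanger, read 7.49 and 8.12 against 7.98 and 7.75. The Pak1-/- replicates lay on either side of the Pak1+/+ pair, and the difference of -0.06 had the widest error of the members (SE 0.23, adjusted p = 0.85). Its 95% interval, -0.67 to 0.55, leaves room for a change of either sign, and leaving out 1 array at a time moved the value between -0.38 and 0.26.

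Txnrd1, the cytosolic selenoenzyme that reduces thioredoxin with NADPH, read 15.56 and 15.67 in the arrays labelled Pak1-/- and 15.72 and 15.67 in those labelled Pak1+/+. The upper Pak1-/- value lay next to the lower Pak1+/+ value, and the difference was -0.08 (SE 0.08, adjusted p = 0.43). Srxn1, sulfiredoxin, which repairs overoxidized peroxiredoxins, read 14.13 and 14.42 against 14.13 and 14.10. Only the second Pak1-/- replicate was clear of the other arrays, and the difference was 0.16 (SE 0.12, adjusted p = 0.30). It was 0.018 without that array and 0.31 without the first Pak1-/- replicate (adjusted p = 0.057). Nqo1, the NAD(P)H quinone dehydrogenase that reduces quinones by a 2-electron step, read 6.75 and 7.13 against 6.78 and 6.70. It was well above background on 1 array, the second Pak1-/- replicate, so it was not tested and no ratio is given. With no filter on dim probes its adjusted p was 0.37. On the other arrays this probe gave no level above background for Nqo1.

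Hmox1 encodes heme oxygenase 1, which opens heme to biliverdin, iron and carbon monoxide. Its brighter probe read 12.58 and 12.77 in the arrays labelled Pak1-/- and 12.34 and 12.35 in the others, 1.25-fold higher (log2 difference 0.32, SE 0.09, adjusted p = 0.038). Both Pak1-/- values lay above the Pak1+/+ pair. The second probe read 9.76 and 9.79 against 9.82 and 9.89, a difference of -0.08 (SE 0.07, adjusted p = 0.38), so the gene's probes did not share a direction. The call on the brighter probe was lost in 8 of 13 other settings. Without the second Pak1-/- replicate the difference was 0.23 (adjusted p = 0.088), without the first Pak1+/+ replicate 0.32 (adjusted p = 0.13), without the second 0.33 (adjusted p = 0.12), and with the mean of both probes 0.12 (adjusted p = 0.24).

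Gsta4 and Gstm1 encode glutathione S-transferases, Gsta4 of the alpha class with a preference for the lipid peroxidation product 4-hydroxynonenal and Gstm1 of the mu class. They passed in opposite directions. Gstm1 read 12.91 and 13.07 in the arrays labelled Pak1-/- and 12.08 and 11.97 in those labelled Pak1+/+, so that the lowest Pak1-/- value stood well clear of the highest Pak1+/+ value. The log2 difference was 0.97 (SE 0.09, adjusted p = 0.0016), or 1.95-fold. The second Gstm1 probe read 12.45 and 12.58 against 11.54 and 11.56, a difference of 0.96 (SE 0.08, adjusted p = 0.0012). The probe sequences differ but the file gives both the same transcript. The file places the second on chromosome 5, 117082490 to 117082549, away from the gene on chromosome 3. Gstm1 passed in all 13 other settings, with differences of 0.88 to 1.05, and its second probe in the 12 that measured it. Mu-class transferases are close paralogs, and binding of their transcripts to these probes was not tested. Of the 6 other Gstm genes on the array, all named here after their values were seen, Gstm7 (1.34), Gstm5 (0.54) and Gstm4 (0.43) were also higher. Gstm2 was lower (-2.10), and Gstm3 (0.19) and Gstm6 (-0.32) did not pass. Of the second probes, that of Gstm4 did not pass (0.18, adjusted p = 0.10) and that of Gstm6 was lower (-0.63, adjusted p = 0.0025).

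Gsta4 was printed in 10 spots per array, of which 0 to 2 were set aside as outliers. It read 14.04 and 14.16 in the arrays labelled Pak1-/- and 14.37 and 14.53 in the others, 1.27-fold lower (log2 difference -0.35, SE 0.09, adjusted p = 0.033). The groups did not overlap. The call was lost in 5 of 12 other settings, among them leaving out the first Pak1-/- replicate (-0.29, adjusted p = 0.12), the second Pak1-/- replicate (-0.41, adjusted p = 0.062) or the second Pak1+/+ replicate (-0.27, adjusted p = 0.15).

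**Figure D2:**
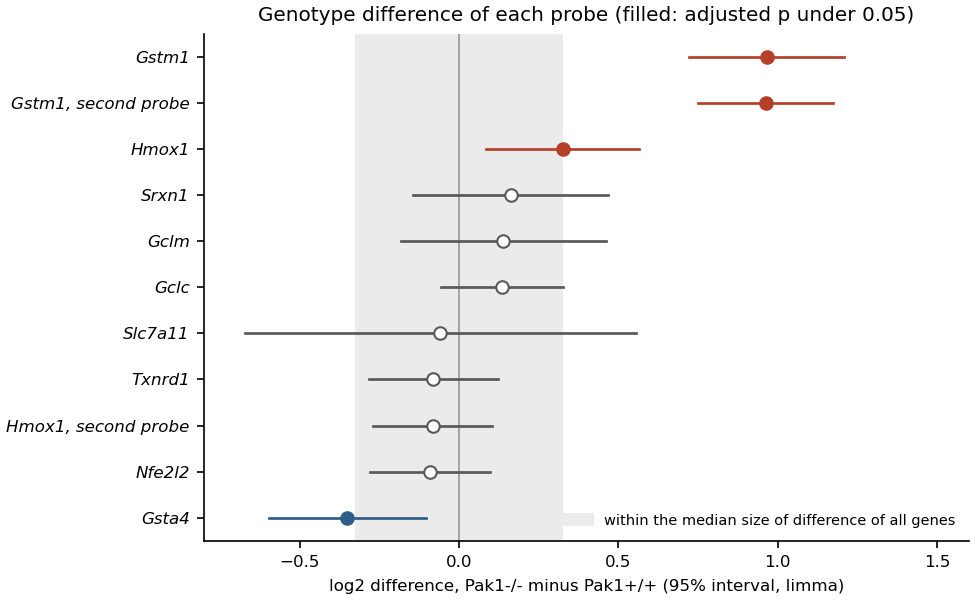
Log2 difference of each tested probe, Pak1-/- minus Pak1+/+ by the labels, with its 95% interval from limma; filled points passed at an adjusted p of 0.05, and the grey band spans the median size of difference of all genes, 0.32 either way. Both Gstm1 probes lie outside the band near 0.97, and the points of Nfe2l2 and of the other targets that did not pass lie inside it.

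The Pak1-/- replicates differed in a way the targets shared, which was noticed after the values were seen and is given with no test. The second Pak1-/- replicate read higher than the first in all 8 targets tested, by a median of 0.18, while over all genes 49.5% were higher and the median gap was -0.001. Nqo1, dim on the first of these arrays, is left out. The gap was widest for Slc7a11 (0.64), Gclm (0.31) and Srxn1 (0.29). Nfe2l2 itself did not take part, at -0.06. Related lists shared this direction in part. The second Pak1-/- replicate was also the higher one in 13 of 18 other NRF2 targets (median gap 0.14), 13 of 22 other glutathione transferases (0.12), 6 of 7 genes of NADPH supply (0.07) and 8 of 10 genes of the ATF4 response (0.15), lists that are described further on. It was so in 10 of 14 genes of glutathione synthesis and use (0.06) and 8 of 12 thioredoxins and peroxiredoxins (0.02), but in 4 of 14 regulators of NRF2 (-0.08) and 1 of 4 superoxide dismutases and catalase (-0.17). Between the Pak1+/+ replicates the second was the lower one in 6 of the 8, with a median gap of -0.04 over the 8. Over all genes 48.6% were higher in the second Pak1+/+ replicate, and the median size of the gap was 0.08. Gclm and Srxn1 were the most alike of the members in their profile over the arrays, at a root mean square difference of 0.016. Values of 1 sample share its RNA, labelling and array, so the genes are not independent readings of this gap. The genotype differences of Gclm, Srxn1 and Hmox1 were 0.14, 0.16 and 0.32, and their gaps between the Pak1-/- replicates 0.31, 0.29 and 0.19. For Gstm1 the gap was 0.16 and the genotype difference 0.97.

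**Figure D3:**
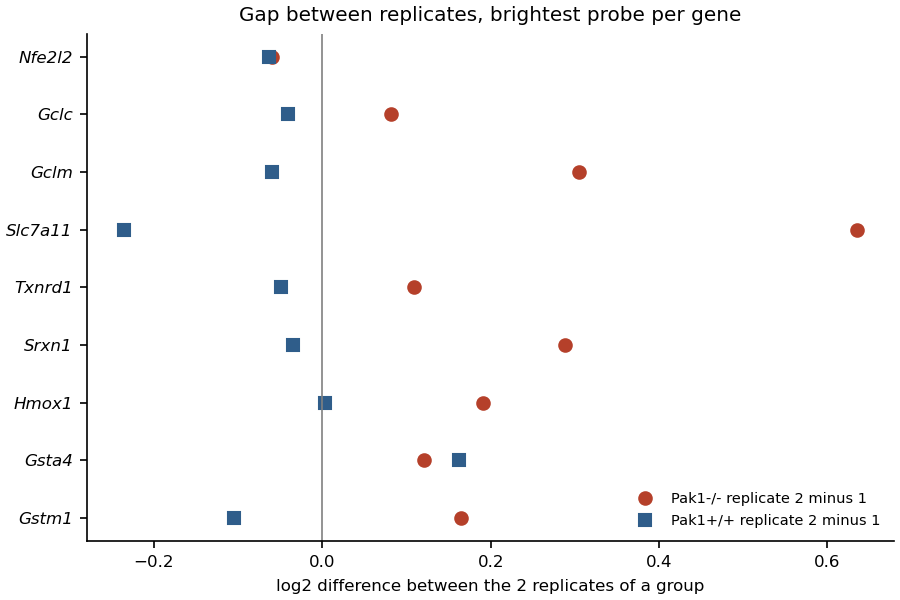
Gap between the 2 replicates of each group, replicate 2 minus replicate 1, on the log2 scale for the brightest probe of each gene (circles, Pak1-/-; squares, Pak1+/+). Nqo1 is left out as dim. The circles of the 8 targets lie above 0, from 0.08 for Gclc to 0.64 for Slc7a11, and that of Nfe2l2 lies at -0.06.

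Other genes of the pathway, and genes of the ATF4 response for comparison, were taken from 8 lists, 102 genes in all. The lists were written from general knowledge with earlier results of these data known, so their counts are a description. Of the 100 tested, 36 were higher in the arrays labelled Pak1-/- and 27 lower, 63.0% against 51.0% of all genes, and 21 of them passed at 2-fold or more, which 12.6% of all genes did. The 36 include Gstk1, Abcc4 and Ggt1 (named after its values were seen), which were dim in both Pak1+/+ arrays and entered the test through the Pak1-/- arrays alone. With signal required on all 4 arrays, 33 were higher and 29 lower. The balance of directions turned with the scaling. It was 29 higher and 30 lower when normexp values were scaled to the 75th percentile of each array, 25 higher and 30 lower when the scanner's processed signal was, and 39 higher and 26 lower under cyclic loess. Over all probes the share of calls that were higher also turned, from 44.9% to 52.4% under cyclic loess. The median log2 difference over all genes was -0.05. Replacing genes that were dim in 1 group by their bound left the median of every list as given.

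Regulators and partners of NRF2 held 14 tested genes, with a median of 0.17. The share that passed was 35.7%, beside 51.0% of all genes and 42.9% to 83.3% in the other lists. By limma 5 regulators were higher, 0 lower (also 0 at an unadjusted p under 0.05) and 9 did not pass. The 5 were Nfe2l3 (3.78), the related cap'n'collar factor NRF3; Nfe2l1 (0.53), the related factor NRF1, which drives proteasome genes; Gsk3b (0.97, and 0.52 and 0.62 on its other 2 probes), a kinase that marks NRF2 for a second ubiquitin ligase; and Btrc (0.34) and Fbxw11 (0.29), the substrate receptors of that ligase. Nfe2l3 read 11.53 and 11.45 in the arrays labelled Pak1-/- and 7.79 and 7.62 in those labelled Pak1+/+, a 13.8-fold difference (SE 0.09 on the log2 scale, adjusted p = 7.1e-05). It was the largest difference of this list, at 3.70 to 4.39 on the log2 scale in the other settings. A second Btrc probe read -0.16, and with the mean of both probes the Btrc difference was 0.09 (adjusted p = 0.32, limma). The core of the KEAP1 system did not pass, with Keap1 at 0.01 and Cul3 at -0.09. Neither did Bach1, the repressor that competes for the same element and restrains Hmox1 (0.24), nor the small MAF partner Maff (0.41), these 4 being named after their values were seen. The count of 5 fell to 2 without the first Pak1-/- replicate, and to 3 without either Pak1+/+ replicate or with the processed signal scaled to the 75th percentile. With those arrays left out in turn, the adjusted p of Btrc was 0.065, 0.084 and 0.094, and that of Fbxw11 0.11, 0.16 and 0.11. Nfe2l1 lost its call without either Pak1-/- replicate, at adjusted p of 0.051 and 0.054.

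Genes of glutathione synthesis and use moved both ways, with 5 higher, 4 lower and 5 of 14 that did not pass (median 0.04). The highest were the secreted peroxidase Gpx3 (2.11, or 4.32-fold) and the endoplasmic reticulum peroxidase Gpx8 (2.14-fold). In the other settings Gpx3 differed by 2.03 to 2.72 on the log2 scale. The lowest were the epithelial peroxidase Gpx2 (-1.12), itself an NRF2 target in other tissues, and the mitochondrial glutaredoxin Glrx2 (-0.83). Gpx2 read 16.30 and 16.65 in the arrays labelled Pak1-/- and 17.63 and 17.55 in the others, with no overlap. The calls of these 4 genes held in all 13 other settings.

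The other glutathione transferases gave 8 higher, 5 lower and 9 of 22 that did not pass (median 0.08). Gstk1, the mitochondrial and peroxisomal kappa-class enzyme, was well above background in the arrays labelled Pak1-/- alone, at least 20.1-fold higher. Gstt2, of the theta class, was 3.87 higher on the log2 scale, at 12.89 and 12.83 against 9.02 and 8.97. Gstm2 (-2.10) and Gstz1 (-1.12), the maleylacetoacetate isomerase of tyrosine breakdown, were the lowest. All 3 Gstm2 probes were lower, at -2.01 and -2.07 on the other 2. Without the second Pak1-/- replicate 5 were higher and 9 lower.

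Among thioredoxins and peroxiredoxins 4 of 12 were higher and 5 lower (median -0.10). Prdx1, the abundant cytosolic peroxiredoxin, was higher by 0.61 on its brighter probe and read -0.02 on its other. Txnip, the thioredoxin-binding protein, was higher by 0.59. Txnrd3, the paralog of Txnrd1 best known from testis, was lower (-1.16), as was Prdx3, the mitochondrial peroxiredoxin (-0.90). The count of higher genes was 2 without the first Pak1+/+ replicate, 2 when normexp values were scaled to the 75th percentile, and 1 when the processed signal was. Under the last, Prdx1 differed by 0.35 (adjusted p = 0.069). Of the 4 superoxide dismutases and catalase, Cat (0.44) and Sod1 (0.38) were higher and the other 2 did not pass (median 0.34). Neither passed when either Pak1+/+ replicate was left out (Cat, adjusted p = 0.052 and 0.16; Sod1, 0.059 and 0.057), and Cat did not without the first Pak1-/- replicate (0.15). Sod1 differed by 0.19 with normexp values scaled to the 75th percentile (adjusted p = 0.089) and by 0.17 with the processed signal (adjusted p = 0.14), which also ended the call of Cat (0.43, adjusted p = 0.068).

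NADPH, which both the glutathione and the thioredoxin systems consume, is supplied in part by NRF2 targets. Of 7 such genes 2 were higher and 1 lower (median 0.17). Pgd, of the oxidative pentose phosphate pathway, was higher by 0.64 and held in all 13 other settings. Taldo1, transaldolase, was higher by 0.40 and lost its call when the first or the second Pak1+/+ replicate was left out (adjusted p = 0.054 and 0.054). Scaled to the 75th percentile, it differed by 0.13 with normexp values (adjusted p = 0.32) and by 0.11 with the processed signal (adjusted p = 0.42). Me1, the cytosolic malic enzyme, was lower (-0.36) and lost its call without the first Pak1-/- replicate (adjusted p = 0.052) or either Pak1+/+ replicate (0.079 and 0.056).

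A list of 18 other tested NRF2 targets was also divided, with 8 higher, 7 lower and 3 that did not pass (median 0.15). Among the lower genes, Fth1 (-0.61, named after its values were seen) was saturated on 2 of the 4 arrays, so its difference is uncertain. Akr1b8, an aldo-keto reductase, was 18.5-fold higher, at 11.58 and 11.86 in the arrays labelled Pak1-/- against 7.53 and 7.50. Its log2 difference was 4.21, and 4.07 to 4.99 in the other settings. Abcc4, a pump for cyclic nucleotides and conjugates, was dim on both arrays labelled Pak1+/+ and at least 8.69-fold higher. Htatip2, an oxidoreductase also called TIP30, was 7.35-fold lower, at 9.06 and 9.41 against 12.09 and 12.14, and Blvrb, a biliverdin and flavin reductase, 2.57-fold lower. The calls of Akr1b8, Htatip2 and Blvrb held in all 13 other settings.

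ATF4 shares Slc7a11 with NRF2 as a target, and 10 genes of its amino acid response were taken for comparison. Of these 2 were higher, 5 lower and 3 did not pass, with a median of -0.27. Phgdh, the first enzyme of serine synthesis, read 13.35 and 13.57 against 15.65 and 15.58, a difference of -2.15. Slc7a5, the large neutral amino acid transporter LAT1, had a log2 difference of -1.54 on its brighter probe and -0.91 on its other. Sesn2, sestrin 2, which is also induced by oxidants, was higher by 1.18, and Trib3 by 0.46. Trib3 lost its call without the second Pak1-/- replicate (adjusted p = 0.094) or the first Pak1+/+ replicate (0.098).

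**Figure D4:**
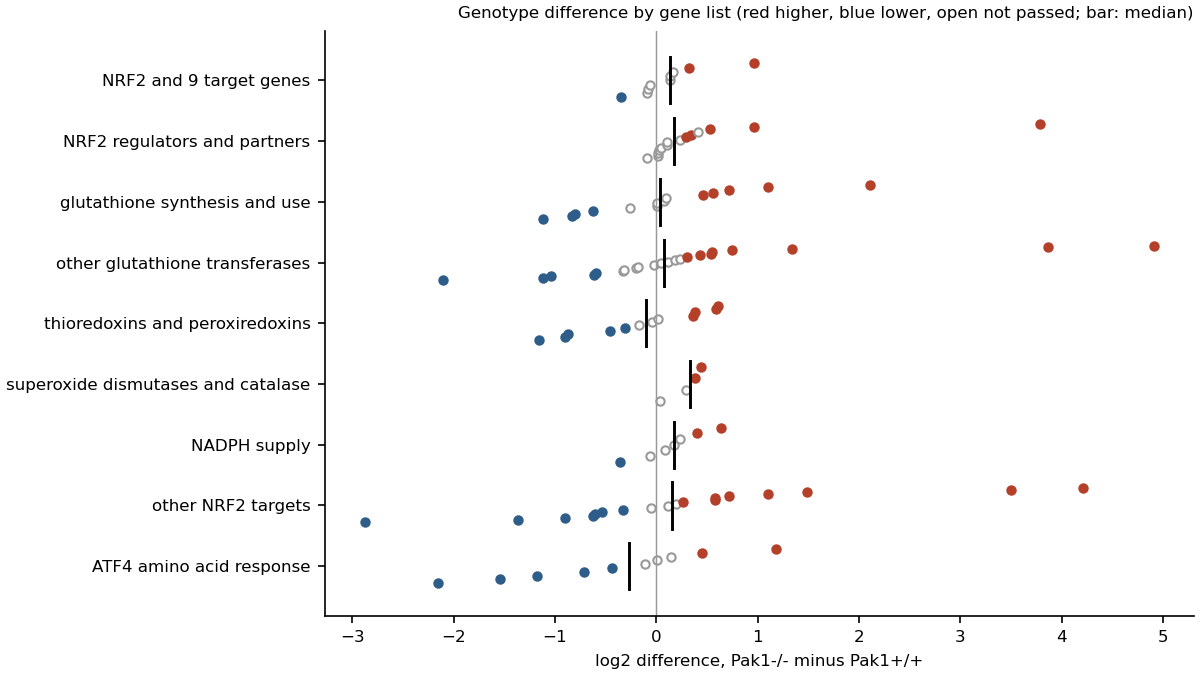
Log2 difference, Pak1-/- minus Pak1+/+ by the labels, of each tested gene (1 point, brightest probe) of NRF2 and its 9 targets and of 8 related lists; the points of Gstk1, Abcc4 and Ggt1 are fitted values of probes dim in both Pak1+/+ arrays, for which a difference is only a bound. The first row spans -0.35 to 0.97, while the rows of regulators, glutathione genes, other transferases, thioredoxins, other NRF2 targets and ATF4 genes each hold points beyond 1 on at least 1 side.

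Promoter sequence was read from RefSeq windows of 250 bases before to 50 after each start site (GRCm38.p6), to show which members hold the core of the antioxidant response element. Windows were found for 7 of the 10 members, 10 windows in all; Hmox1, Gclc and Gsta4 had none in the table. The core searched was TGACNNNGC on both strands. It occurred in 4 of the 10 windows, 1 each of Nfe2l2, Gclm, Txnrd1 and Srxn1. The share was 12.4% of all 32851 windows and 20.0% of the 125 windows of the related lists. The matches are printed in capitals with 10 bases on each side, as the gene's strand reads; in the last 3 the core lies on the opposite strand.
Nfe2l2 (chr2:75704885-75704913, minus strand, 240 bases before the start): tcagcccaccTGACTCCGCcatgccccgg
Gclm (chr3:122245413-122245441, 134 bases before the start): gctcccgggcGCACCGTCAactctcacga
Txnrd1 (chr10:82859104-82859132, 92 bases before 1 of 3 starts): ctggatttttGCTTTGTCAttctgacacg
Srxn1 (chr2:152105542-152105570, 28 bases after the start): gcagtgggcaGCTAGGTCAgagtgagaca
None of these 4 genes passed the test between the groups. Gstm1, which did, had no match in either of its 2 windows, nor had Slc7a11 and Nqo1 in theirs. A missing match says only that these letters were not in a window of 300 bases.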

How the data were processed

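Total RNA of 4 samples was labelled with Cy3 and hybridised to 1-colour Agilent mouse arrays, 1 array per sample. The scanner files deposited by the authors give linear spot intensity from Feature Extraction 9.5.3.1, before any normalization between arrays, with probe positions on mm9. A deposited table of log2 values was made by the authors with normexp correction and quantile normalization. Its offset is not given in the sources used here, and it served as an alternative. Here, as in the study's methods, normexp (offset 50, chosen here) and quantile normalization were applied to the scanner values with limma 3.58.1 in R 4.3.3, and 43020 non-control spots were kept. Outlier spots were set aside and spots of a probe averaged. A probe was tested when at least 2 of the 4 arrays had it well above background (27229 of 39429 probes) with lmFit and eBayes, two-sided, genotype as the only term. Adjusted p-values are Benjamini-Hochberg values over those probes. The prior added 2.62 to 2 residual degrees of freedom. An exact permutation test of 2 against 2 cannot go below 0.333, so none was run. The fit was first run on simulated data with independent noise, to check that its mean estimates returned planted differences. That check set no requirement on the rate of false calls. A probe dim in both arrays of 1 group has only a bound, the bright group's mean against the higher of the dim probe's value and the lowest value well above background on each array. No saturated spot occurred among the members. The number of arrays limits the precision, and the offset lowers differences of dim probes.

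The members and the gene lists were chosen with earlier results of these data known. Every member and probe is named, with Pak1, every passing gene of the regulator list, the 2 highest and 2 lowest passing genes of each other list, and the 3 nearest profiles to Nfe2l2. Of 32334 probes with an accession, 26055 were matched to RefSeq symbols. Replicate numbers were not used to pair the samples in the main fit. Alternatives covered the offset, scaling, filter, probe averaging, replicate block, the authors' table, thresholds and leaving out each array.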

Additional observations from a re-analysis of the deposited data

How the results depend on the processing

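Over 543 values of single genes under other settings, 488 kept their direction and their side of the threshold, 47 fell short of it, 2 newly passed it (Gclc and Pak1, both under cyclic loess) and 6 changed sign. None of the 6 had passed to begin with. Cyclic loess gave 0.0040 for Nfe2l2, 0.019 for the second Hmox1 probe and 0.030 for Txnrd1. Leaving out the second Pak1-/- replicate gave -0.014 for Gclm (range -0.014 to 0.29 with 1 array left out), and leaving out the first Pak1-/- or the first Pak1+/+ replicate gave 0.26 and 0.059 for Slc7a11 (range -0.38 to 0.26). The cause was not tested.

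Among the members, 2 were higher and 1 lower. Leaving out 1 array at a time gave 1 to 2 higher and 0 to 1 lower. The number higher was 1 with no offset, with the processed signal scaled to the 75th percentile, with no filter, with the replicate block, with probe means and at an adjusted p of 0.01, and 0 at 2-fold; 0 were lower under cyclic loess, with no filter, in the authors' table, which held no Gsta4 value, at an adjusted p of 0.01 and at 2-fold. Over all probes 14132 passed, 10314 to 12172 with 1 array left out, 8878 at an adjusted p of 0.01 and 3413 at 2-fold. The gene lists, the ATF4 response among them, gave 36 higher and 27 lower. They gave 22 higher and 22 lower at an adjusted p of 0.01, and 11 higher and 10 lower at 2-fold. With 1 array left out the lists gave 25 to 32 higher and 22 to 30 lower, and the lone sample was assumed to vary like the other group.

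With the replicate number as a block 13202 probes passed, and among the members the call of Hmox1 was lost (adjusted p = 0.050). Deviations of same-numbered samples correlated at -0.03 over probes. This value cannot tell whether those samples shared a day or a batch.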
